A study of Homo sapiens with 9 samples.

Results

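The genes described here encode the guidance ligands and receptors of the semaphorin and ephrin systems, in human embryonic stem cells before and after differentiation with either of a pair of related small molecules. They were chosen by symbol alone, as every row of the deposited count table named for a semaphorin of classes 3 to 7, a plexin, a neuropilin, an ephrin or an Eph receptor. This gave 53 of 27730 gene symbols, namely 20 semaphorins, 2 neuropilins, 9 plexins, 8 ephrins and 14 Eph receptors. Each of the 53 was detected in at least 1 of the 9 libraries.

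The cells were HUES9, a human embryonic stem cell line kept on mouse embryonic fibroblast feeders and used between passages 44 and 46. Day 1 cells had no agent. Day 13 cells had been formed into embryoid bodies, plated on Matrigel and given differentiation medium with 10 µM AA147, which the labels call an activator of ATF6, a stress-responsive transcription factor of the endoplasmic reticulum, or with 10 µM of its inactive analog RP22. Each of the 3 groups held 3 libraries of total RNA, which the labels call independent experiments. All libraries come from this 1 line, and reads of the mouse feeders could not be told apart in the tables. Solvent-treated cells were not analysed here.

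Semaphorins are secreted or membrane-bound ligands that steer the growth and movement of neurons, vessel cells and epithelia. Class 3 semaphorins are secreted and mostly bind neuropilins, which pass the signal on through plexins, whereas the membrane-bound classes bind plexins directly. Plexins act on the cytoskeleton through small GTPases. Ephrins stay on the cell surface, the A type by a lipid anchor and the B type by a membrane span, and they bind Eph receptor tyrosine kinases on the neighbouring cell, so that both cells can receive a signal. Both systems set boundaries between tissues in the embryo and pattern its vessels and nerves.

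Library totals ranged from 9223027 to 10118258 reads, and the 53 genes took 0.178 to 0.236% of the reads at day 1 and 0.451 to 0.487% at day 13. The undifferentiated state named in the labels was checked on 8 marker genes, whose summed level was 7225 to 8108 CPM (read counts scaled to library size) at day 1, 514 to 833 CPM with RP22 and 166 to 221 CPM with AA147. RP22 replicate 1 stood apart from replicates 2 and 3. It lay over 1.5 times above or below both of them in 14 of the 51 members tested (27.5%), against 0 and 1 members for the other 2 libraries, and in 10.9% of all genes tested. AA147 replicate 1 lay apart in the same way in 6 members (11.8%) and 9.24% of all genes. By counts alone, day 1 replicate 1 was farther from its group (chi-square per degree of freedom 13.8 and 8.47) than the other day 1 libraries from each other (3.66). Results that rest on 1 library are given with and without it. CPM values below are scaled by TMM, a method that takes most genes as unchanged. Scaled by library totals alone, the AA147 against RP22 median over all genes moved on the log2 scale from -0.03 to -0.49, so small differences between the day 13 groups depend on the scaling.

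The comparison of AA147 with RP22 asks how the active compound differs from its analog at the same dose and day. The guidance genes divided between the compounds within every family but the neuropilins. SEMA5A, SEMA7A, SEMA3C, PLXND1, EPHA2, EFNB2 and EFNA1 were at least 2-fold higher with AA147. EPHA7, SEMA6B, SEMA3E, SEMA6D, SEMA6A, SEMA3A and both neuropilins were among those at least 2-fold lower. Of 51 members that passed the count filter, 16 rose and 25 fell (quasi-likelihood F test in edgeR, n = 3 per group, p adjusted by Benjamini-Hochberg over 14293 genes, threshold 0.05). Over all genes tested, 62% passed (29.8% rose and 32.2% fell), so the share of members that rose (31.4%) was near the background and the share that fell (49.0%) was above it. Of the 51, 9 reached the filter's minimum of 10 reads (scaled to the median library) in every library of RP22 and not of AA147, so that mainly a fall could be called for them, and 7 of these 9 are among the 25. The 42 with the minimum in all 6 libraries had 16 rises and 18 falls, or 38.1% and 42.9%, against 33.9% and 25.9% of the 12407 such genes. Changes of at least 2-fold past the test counted 7 of the 51 members upward and 20 downward, where all genes had 8.4% and 18.1%. The same 7 members with the minimum in RP22 alone are among these 20, so here too mainly a fall could be called for them. The median log2 fold change was -0.58 over the 51 members, with those 9 included, and -0.03 over all genes. With library totals alone 11 members rose and 32 fell, 25.6% of the calls upward in place of 39.0%. Under that scaling 1897 of all 14293 genes rose and 8527 fell, so the members' falls were then near the background. The excess of falls over the background thus depends on the scaling. Without RP22 replicate 1 the numbers were 17 and 26. The 3 libraries of each group did not overlap in 40 of the 51 members, against 70.6% of all genes tested. In such bulk samples, fewer cells of a type and less RNA per cell cannot be told apart.

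**Figure D1:**
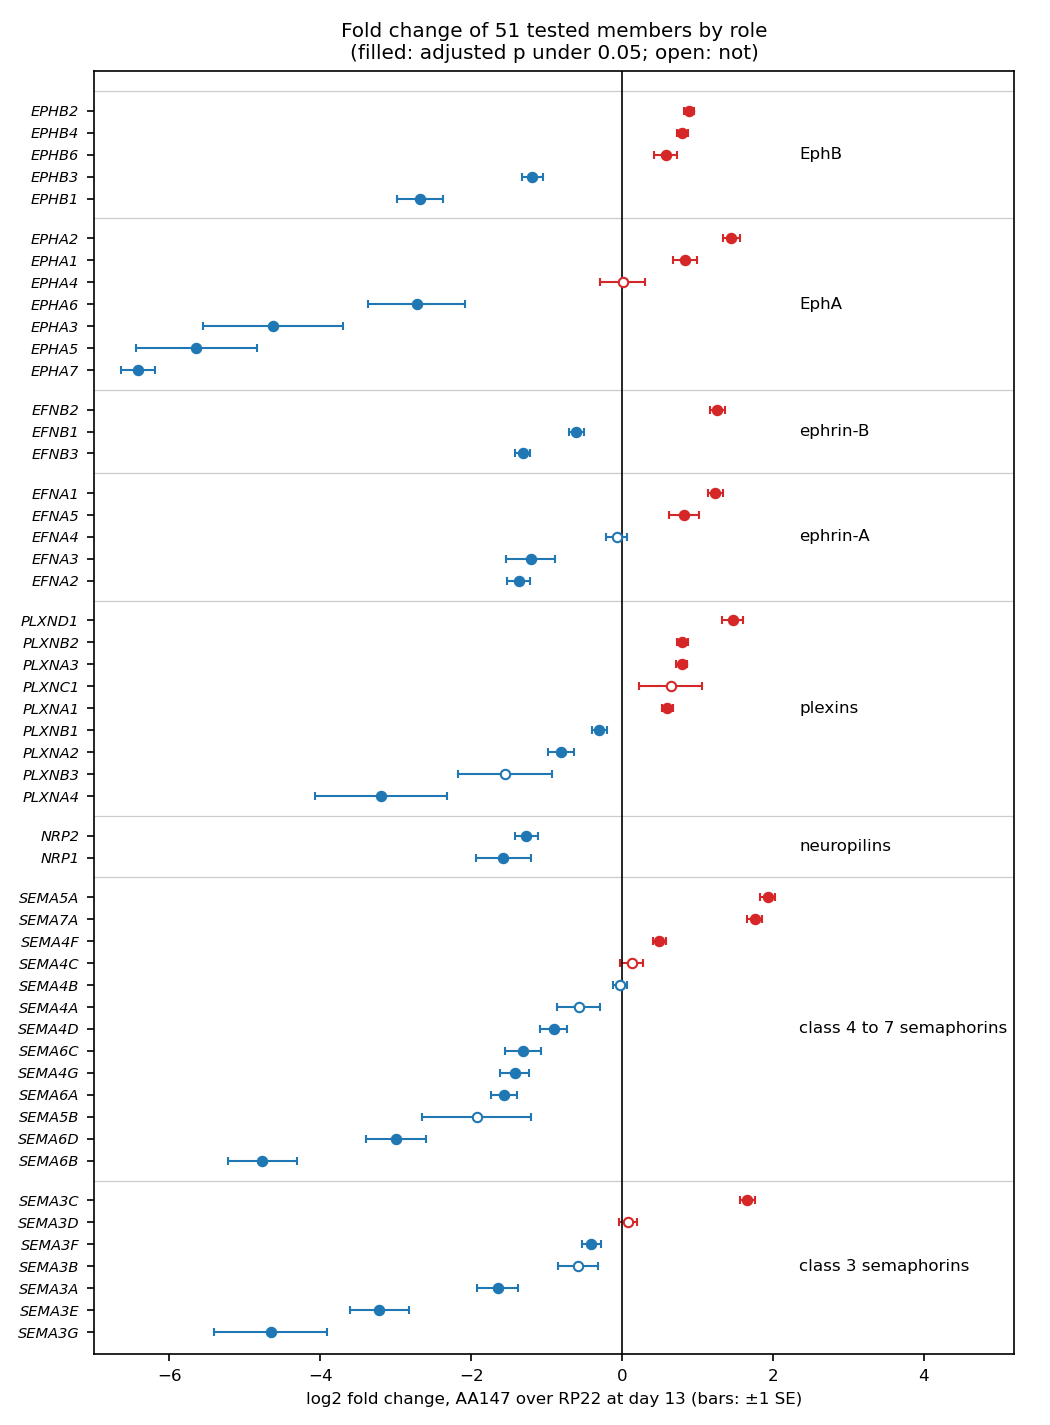
Log2 fold change of AA147 over RP22 at day 13 for the 51 members tested, grouped by role, with bars of ±1 SE, red for values above 0 and blue for values below, and filled points for adjusted p under 0.05. Members of the same role lie on both sides of 0 except for the neuropilins, and the falls reach -6.41 (EPHA7) while the rises end at 1.93 (SEMA5A).

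The upstream sequences of a few of these genes are shown because AA147 is described as an ATF6 activator, and ATF6 is known to bind the endoplasmic reticulum stress element, a CCAAT letter group and a CCACG letter group set apart by a fixed spacer. Each sequence covers the 250 bases before the gene's start in RefSeq (build GRCh38.p14), 5′ to 3′ on the gene's own strand, with CCAAT and CCACG in capitals wherever they occur on either strand (ATTGG and CGTGG are their reverse complements). The 3 members with the largest rise are shown first, then EFNB2, the ephrin with the highest level, and then EPHA7 and SEMA3E, which fell.
SEMA5A: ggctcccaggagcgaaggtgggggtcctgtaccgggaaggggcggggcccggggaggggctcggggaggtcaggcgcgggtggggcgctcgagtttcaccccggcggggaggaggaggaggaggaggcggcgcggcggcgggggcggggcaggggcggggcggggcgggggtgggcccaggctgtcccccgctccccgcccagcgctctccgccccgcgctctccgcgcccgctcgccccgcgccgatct
SEMA7A: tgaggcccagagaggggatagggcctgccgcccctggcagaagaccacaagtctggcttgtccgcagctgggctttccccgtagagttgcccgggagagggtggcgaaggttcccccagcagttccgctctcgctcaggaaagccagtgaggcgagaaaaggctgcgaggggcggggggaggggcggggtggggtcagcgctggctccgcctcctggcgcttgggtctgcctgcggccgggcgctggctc
SEMA3C: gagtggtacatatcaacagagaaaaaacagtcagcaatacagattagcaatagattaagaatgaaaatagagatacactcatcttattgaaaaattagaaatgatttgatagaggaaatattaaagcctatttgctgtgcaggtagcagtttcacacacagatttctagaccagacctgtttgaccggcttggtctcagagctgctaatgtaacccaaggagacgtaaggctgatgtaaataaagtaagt
EFNB2: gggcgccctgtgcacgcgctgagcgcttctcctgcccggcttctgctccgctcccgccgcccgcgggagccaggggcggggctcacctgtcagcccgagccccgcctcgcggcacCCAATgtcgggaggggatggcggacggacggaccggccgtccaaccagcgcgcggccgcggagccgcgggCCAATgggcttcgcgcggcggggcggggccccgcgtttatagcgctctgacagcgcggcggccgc
EPHA7: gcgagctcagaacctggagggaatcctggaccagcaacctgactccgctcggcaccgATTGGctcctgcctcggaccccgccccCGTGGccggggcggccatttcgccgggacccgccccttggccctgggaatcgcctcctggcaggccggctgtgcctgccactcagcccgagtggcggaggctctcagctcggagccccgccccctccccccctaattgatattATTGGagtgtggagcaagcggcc
SEMA3E: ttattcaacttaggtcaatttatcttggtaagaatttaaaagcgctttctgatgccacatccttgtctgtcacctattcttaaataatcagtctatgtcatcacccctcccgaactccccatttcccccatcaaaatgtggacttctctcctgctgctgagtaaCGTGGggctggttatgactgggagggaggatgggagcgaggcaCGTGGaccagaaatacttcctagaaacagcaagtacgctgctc
These windows lie at chr5:9546076-9546325, minus strand (SEMA5A), at chr15:74433959-74434208, minus strand (SEMA7A), at chr7:80922390-80922639, minus strand (SEMA3C), at chr13:106535663-106535912, minus strand (EFNB2), at chr6:93419560-93419809, minus strand (EPHA7) and at chr7:83649140-83649389, minus strand (SEMA3E). The windows of SEMA5A, SEMA7A and SEMA3C held neither letter group. The EFNB2 window held CCAAT 2 times and CCACG 0 times, the EPHA7 window held CCAAT 2 times and CCACG 1 time, and the SEMA3E window held CCACG 2 times, in each case counting both strands. Of the 53 members, 47 matched a RefSeq promoter. The full element, searched as CCAAT, any 9 bases and CCACG on both strands, was in 0 of these 47 windows and in 0.0806% of 27305 promoters of the same length. The letters TGACGTG, the core of another element bound by ATF6, were in 0 of the 47 and in 1.71% of all. CCACG alone was in 19 of the 47 and 33.3% of all, and CCAAT alone in 16 of the 47 and 33% of all, counting also those inside the full element. A match is a description of letters and no match says only that they are not in this window. Among the 7 members at least 2-fold higher with AA147, CCACG was found in EFNA1 and PLXND1 and CCAAT in EFNB2. Among the 12 matched members named for a fall of at least 2-fold, CCACG was in 6 and CCAAT in 5. Base composition differed widely, with 82% G and C for SEMA5A and 36.4% for SEMA3C, against a median of 58% over all promoters.

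Of the 7 class 3 semaphorins, 1 rose with AA147 relative to RP22, 4 fell and 2 did not pass the test. SEMA3C, a secreted ligand known for its part in the outflow tract of the heart, stood at 219, 181 and 193 CPM in the RP22 libraries and 610.0, 714 and 661 CPM in the AA147 libraries. All 3 AA147 libraries were over the RP22 range, a log2 fold change of 1.66 ± 0.0942 (SE; adjusted p = 9.7e-06). SEMA3A, the classic repellent of axons that acts through NRP1, was at 98.2, 103 and 113 CPM with RP22 and 49.0, 22.3 and 34.5 CPM with AA147, without overlap and with the lowest level in AA147 replicate 2. Its log2 fold change was -1.65 ± 0.275 (adjusted p = 0.0028). SEMA3E, which binds PLXND1 without a neuropilin, was at 31.3, 64.0 and 76.6 CPM with RP22 and 5.77, 7.03 and 6.80 CPM with AA147. RP22 replicate 1 was the lowest of its group and still over 4 times any AA147 library, and the log2 fold change was -3.22 ± 0.386 (adjusted p = 0.00073), or -3.49 without that library.

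SEMA3G, a ligand of NRP2 known from vessels, had 137, 47 and 72 reads in the RP22 libraries and 3, 4 and 0 in the AA147 libraries. Most of its RP22 reads were in replicate 1, and the log2 fold change was -4.66 ± 0.745 (adjusted p = 0.0013) with all libraries, -4.07 without RP22 replicate 1, -5.28 without AA147 replicate 2 and -4.06 without AA147 replicate 3. SEMA3F, another NRP2 ligand, fell by less (-0.41 ± 0.126, adjusted p = 0.022). That call ended with all 9 libraries in one fit (adjusted p = 0.12) and without RP22 replicate 3 (0.078) or AA147 replicate 2 (0.058) or 3 (0.062). SEMA3D, another secreted ligand at a high level, was at 105, 115 and 131 CPM with RP22 and 143, 113 and 136 CPM with AA147, overlapping ranges with a log2 fold change of 0.08 ± 0.120 (adjusted p = 0.58). SEMA3B did not pass either (-0.58 ± 0.264, adjusted p = 0.095). With library totals alone both were below 0 and past the threshold, with -0.38 for SEMA3D and -1.03 for SEMA3B.

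The 13 semaphorins of classes 4 to 7 had 3 members higher with AA147, 6 lower and 4 that did not pass. SEMA5A, a membrane protein with thrombospondin repeats, had the largest rise of all 51 members. Its level was 199, 161 and 161 CPM with RP22 and 659, 755 and 679 CPM with AA147, a log2 fold change of 1.93 ± 0.104 (adjusted p = 7.9e-06). SEMA7A, the lipid-anchored semaphorin that binds PLXNC1 and integrins, was at 65.1, 60.7 and 59.4 CPM with RP22 and 189, 234 and 240.2 CPM with AA147 (1.76 ± 0.0977, adjusted p = 8.9e-06). For both genes every AA147 library was over 2 times the highest RP22 library. SEMA4F rose with TMM scaling (0.50 ± 0.0902, adjusted p = 0.0019) but did not pass with library totals alone (0.04, adjusted p = 0.7).

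All 4 class 6 semaphorins, transmembrane ligands of A-type plexins, fell with AA147. SEMA6A, the most abundant membrane semaphorin at day 1, was at 168, 232 and 253 CPM with RP22 and 72.1, 71.7 and 89.7 CPM with AA147 (-1.57 ± 0.172, adjusted p = 0.00026). SEMA6B, a ligand of PLXNA4, had 14.3, 34.6 and 33.1 CPM with RP22 and 1.31, 0.827 and 1.01 CPM with AA147, so that the lowest RP22 library was still far above the highest AA147 library (-4.77 ± 0.460, adjusted p = 0.00017, or -5.05 without RP22 replicate 1). The 3 AA147 libraries held 24 of its reads in all. SEMA6D, known for its part in the forming heart, was at 98.5, 50.1 and 51.9 CPM with RP22, highest in replicate 1, and 12.7, 7.31 and 6.42 CPM with AA147 (-3.0 ± 0.402, adjusted p = 0.0013, or -2.60 without RP22 replicate 1). SEMA6C was at 17.5, 24.6 and 24.1 CPM with RP22 and 12.3, 8.96 and 6.93 CPM with AA147 (-1.31 ± 0.236, adjusted p = 0.0019), again without overlap.

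Of the 6 class 4 members, 1 rose (SEMA4F), 2 fell and 3 did not pass. SEMA4D (CD100), the ligand of PLXNB1, fell from 37.6 ± 7.47 CPM with RP22 to 21.3 ± 3.31 CPM with AA147 (SD, n = 3), a log2 fold change of -0.90 ± 0.178 (adjusted p = 0.0031). SEMA4G was at 10.9, 11.9 and 13.5 CPM with RP22 and 5.64, 4.55 and 4.16 CPM with AA147 (-1.42 ± 0.194, adjusted p = 0.00046). In GENCODE v29 16.8% of its exon bases lie over exons of MRPL43 on the other strand, so its reads may be shared where the counting ignored strand, which is not given in the sources used here. SEMA4C, a ligand of PLXNB2 and the class 4 member with the highest level, was at 175, 113 and 127 CPM with RP22 and 159, 154 and 166 CPM with AA147. Its ranges overlapped through RP22 replicate 1 (0.13 ± 0.154, adjusted p = 0.49), and without that library the log2 fold change was 0.35 (adjusted p = 0.0035). SEMA4A, SEMA4B and SEMA5B did not pass the test, with log2 fold changes of -0.57, -0.03 and -1.93. With library totals alone they passed as lower (-1.02, -0.48 and -2.40). SEMA5B also passed with DESeq2 (-1.94, adjusted p = 0.005) and without RP22 replicate 1 (-2.28, adjusted p = 0.015).

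Both neuropilins, the receptors that bind class 3 semaphorins and VEGF, fell with AA147. NRP1 was at 260.3, 139.8 and 152 CPM with RP22 and 90.8, 45.9 and 58.7 CPM with AA147, with replicate 1 the highest in both groups (-1.57 ± 0.363, adjusted p = 0.012, or -1.23 without RP22 replicate 1). NRP2 was at 195, 161 and 167 CPM with RP22 and 93.2, 65.6 and 70.0 CPM with AA147 (-1.27 ± 0.150, adjusted p = 0.00031). The groups did not overlap for either gene. Neuropilins are also known from endothelium and neurons, and the markers of those cells moved the same way. The summed level of 8 endothelial markers was 91.8 to 190.3 CPM with RP22 and 7.72 to 25.7 CPM with AA147, where 6 of 7 tested were lower and PECAM1 was at 0 reads. The sum of 8 neuron markers was 896 to 1064 CPM with RP22 and 449.8 to 497 CPM with AA147, with 7 of 8 lower and TUBB3 higher. Most of the AA147 sum came from TUBB3, at 439 CPM. Most of the endothelial sum with RP22 came from KDR, at 130, 56.4 and 75.5 CPM. KDR was already at a mean of 44.4 CPM at day 1. Of other members tied here to vessels, arteries or veins, PLXND1, EFNB2 and EPHB4 were higher with AA147 (log2 fold changes 1.47, 1.26 and 0.80). SEMA3G was lower (-4.66). The part of endothelial cells and neurons in the result was not tested.

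Of the 9 plexins, 4 rose with AA147, 3 fell and 2 did not pass. PLXND1, the receptor of SEMA3E known from vessels, was at 148, 114 and 110.3 CPM with RP22 and 416, 334 and 337 CPM with AA147 (1.47 ± 0.143, adjusted p = 0.00012). It moved against its ligand SEMA3E, which fell. PLXNB2, the plexin with the highest level, went from 292 ± 12 to 538 ± 19.6 CPM (0.80 ± 0.0707, adjusted p = 6.1e-05). PLXNA3 rose by nearly the same amount (0.79 ± 0.0728, adjusted p = 7.3e-05). PLXNA1 rose with TMM scaling (0.60 ± 0.0757, adjusted p = 0.00032) and not with library totals alone (0.14, adjusted p = 0.17).

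PLXNA4, a neuronal receptor of SEMA3A and class 6 semaphorins, was at 94.3, 25.1 and 31.8 CPM with RP22 and 12.1, 2.62 and 2.65 CPM with AA147. Replicate 1 was the highest library of each group by over 2.5 times, and the log2 fold change was -3.19 ± 0.874 (adjusted p = 0.026). The size moved to -2.36 without RP22 replicate 1 and -4.33 without AA147 replicate 1, and the call ended with limma-voom (adjusted p = 0.074) and without AA147 replicate 2 (0.061) or 3 (0.077). PLXNA2, a receptor of SEMA6A, fell from 111 ± 23.5 to 67.2 ± 10.3 CPM (-0.80 ± 0.174, adjusted p = 0.0058). PLXNB1, the receptor of SEMA4D, was at 184, 232 and 231 CPM with RP22 and 187, 181 and 187 CPM with AA147. These ranges overlapped (-0.30 ± 0.101, adjusted p = 0.03), and the call ended with all 9 libraries in one fit (adjusted p = 0.085) and without any 1 of RP22 replicate 2 (0.12) or 3 (0.12) or AA147 replicate 1 (0.056), 2 (0.11) or 3 (0.085). PLXNC1 and PLXNB3 did not pass the test (0.64 ± 0.416 and -1.55 ± 0.624, adjusted p = 0.22 and 0.064). PLXNB3 passed with DESeq2 (adjusted p = 0.032) and with library totals alone (0.02). It had 146 reads over the RP22 libraries and 36 over the AA147 libraries, and shares 19.6% of its exon bases with SRPK3 in GENCODE v29.

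**Figure D2:**
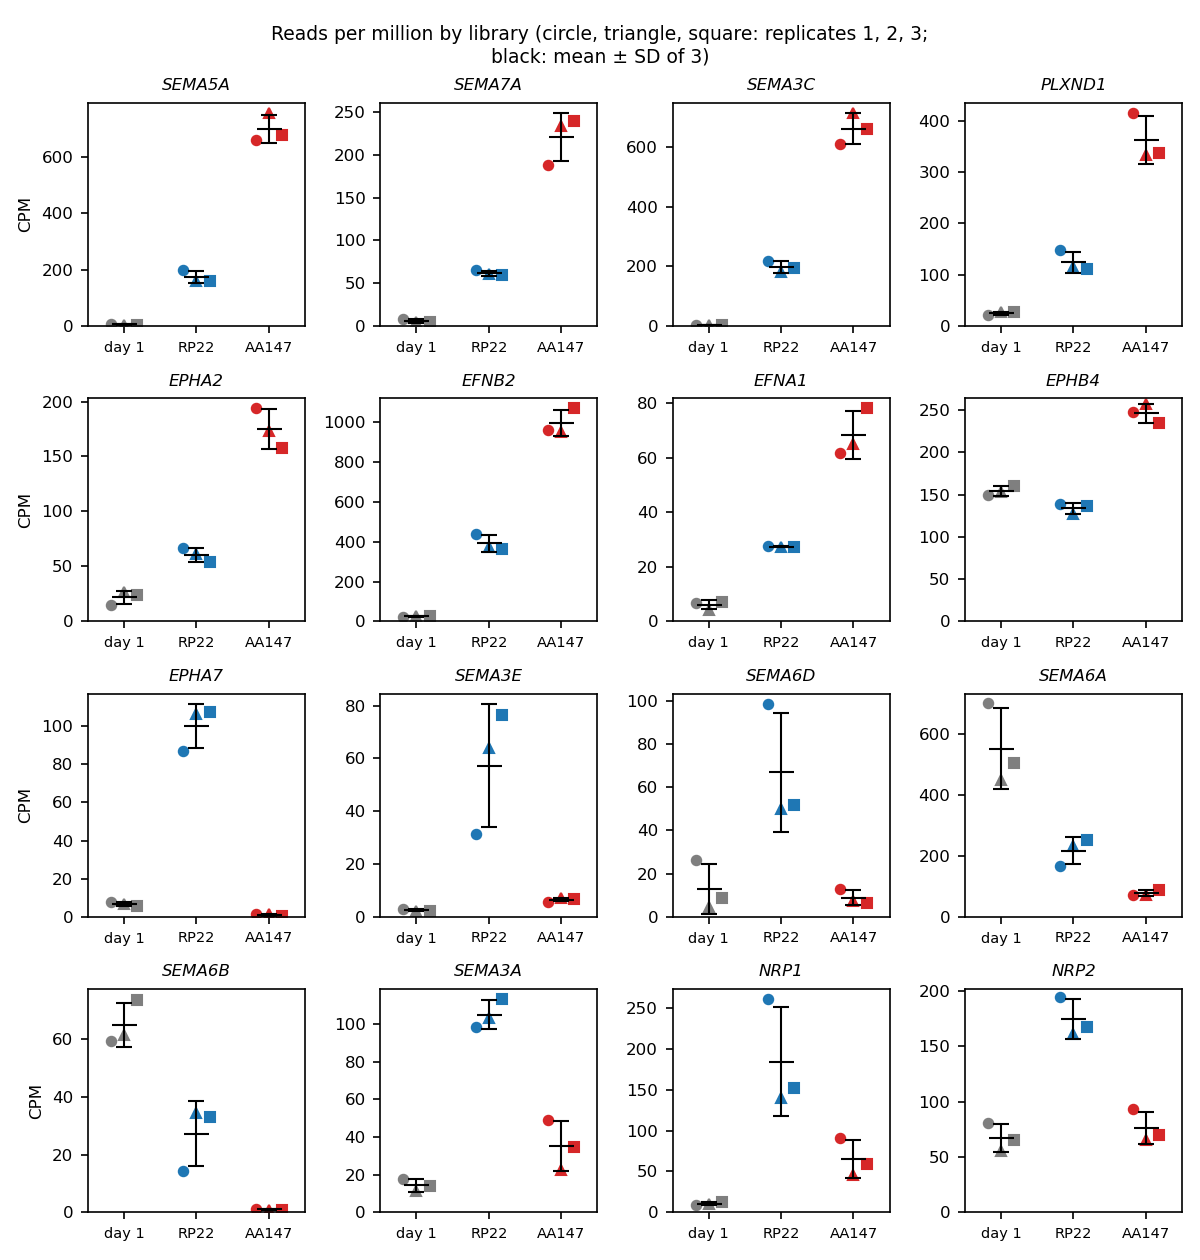
Library-scaled read counts (CPM, linear axes from 0) of 16 members in each of the 9 libraries, with circles, triangles and squares for replicates 1, 2 and 3 and black bars for the mean ± SD of 3. In the upper 2 rows, SEMA5A to EPHB4, the AA147 libraries lie above the RP22 libraries, and in the lower 2 rows, EPHA7 to NRP2, they lie below them.

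Among the ephrins, 1 member of each type rose at least 2-fold with AA147. EFNB2, which marks arteries and binds EPHB4, had the highest level of all ephrins, with 438, 371 and 364 CPM with RP22 and 962, 949.6 and 1068 CPM with AA147. Every AA147 library was over 2 times the highest RP22 library (1.26 ± 0.0957, adjusted p = 3e-05). In GENCODE v29 26% of its exon bases lie over an antisense RNA gene. EFNA1, the main ligand of EPHA2, was at 27.6, 27.3 and 27.4 CPM with RP22 and 61.7, 64.9 and 78.2 CPM with AA147 (1.23 ± 0.0996, adjusted p = 4e-05). EFNA5 rose from 35.2, 61.7 and 56.2 CPM to 94.6, 92.1 and 99.1 CPM (0.82 ± 0.199, adjusted p = 0.01), lowest in RP22 replicate 1, without which the value was 0.63. Its call ended with library totals alone (0.36, adjusted p = 0.18).

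The other ephrins were lower or did not pass. EFNB3, a midline ligand of the nervous system, was at 57.2, 47.2 and 48.3 CPM with RP22 and 21.1, 21.0 and 22.7 CPM with AA147 (-1.32 ± 0.101, adjusted p = 3.2e-05). EFNB1 went from 91.5, 93.0 and 99.0 CPM to 70.6, 56.5 and 69.8 CPM (-0.61 ± 0.102, adjusted p = 0.0013), a call that ended with all 9 libraries in one fit (adjusted p = 0.13). EFNA2 was at 14.0, 15.6 and 15.4 CPM with RP22 and 5.77, 5.65 and 6.93 CPM with AA147 (-1.37 ± 0.155, adjusted p = 0.00019), with all AA147 libraries under the RP22 range. EFNA3 fell as well (-1.21 ± 0.322, adjusted p = 0.012), with 47 reads over the AA147 libraries against 154, and its call ended without RP22 replicate 3 (adjusted p = 0.056). EFNA4 did not pass the test (-0.07 ± 0.142, adjusted p = 0.68) and was lower with library totals alone (-0.53, adjusted p = 0.015). GENCODE v29 has a gene model that runs through EFNA4 and EFNA3, so reads of the 2 genes may be shared.

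Of the 9 A-type Eph receptors, 7 passed the count filter, and 2 of them rose with AA147 while 4 fell. All 4 that fell (EPHA3, EPHA5, EPHA6 and EPHA7) reached the filter's minimum in every library of RP22 alone, so mainly a fall could be seen for them. EPHA2, an epithelial receptor of EFNA1, was at 66.9, 60.9 and 54.4 CPM with RP22 and 194, 173 and 157 CPM with AA147 (1.45 ± 0.110, adjusted p = 3.1e-05). Ligand and receptor thus both rose, with no overlap between the groups. The summed level of 6 epithelial markers was 3009 to 3168 CPM with RP22 and 7725 to 7992 CPM with AA147, and all 6 were higher. Their part in the rise of EPHA2 and EFNA1 was not tested. EPHA1, the most abundant A-type receptor at day 1, was at 26.3, 29.3 and 31.7 CPM with RP22 and 41.9, 59.1 and 64.4 CPM with AA147 (0.84 ± 0.157, adjusted p = 0.0025). Its call ended with library totals alone (0.38, adjusted p = 0.062).

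EPHA7, a receptor known from the patterning of the brain, had the largest fall of all members. It was at 86.8, 106 and 107 CPM with RP22 and 1.57, 1.52 and 0.630 CPM with AA147, or 3380 reads against 28, and no library of either group came near the other group (-6.41 ± 0.223, adjusted p = 2e-06). EPHA3 had 57, 208 and 269 reads with RP22 and 11, 0 and 4 with AA147. Its log2 fold change was -4.62 ± 0.928 (adjusted p = 0.0061), -5.01 without RP22 replicate 1, -5.91 without AA147 replicate 1, which held most of the AA147 reads, and its call ended with limma-voom (adjusted p = 0.097). EPHA5 fell (adjusted p = 0.00057), with 163 RP22 reads and 2 AA147 reads, which after scaling is 55.2 times as many (95% interval from counting 15.0 to 459.8). Both AA147 reads were in replicate 2, and the fitted log2 fold change moved from -5.64 to -8.58 without it. EPHA6 fell with 95 reads against 10 (-2.72 ± 0.648, adjusted p = 0.0072), or -3.83 without AA147 replicate 1. EPHA4 was at 52.3 and 55.8 CPM and did not pass (0.01 ± 0.298, adjusted p = 0.98).

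The remaining A-type receptors did not pass the count filter in this comparison. EPHA8 had 11 reads over the RP22 libraries and 6 over the AA147 libraries, too few to show a difference at this depth. EPHA10, which lacks kinase activity, had 34 and 1 reads, 23.0 times as many with RP22 after scaling (95% interval 3.86 to 936). The summed level of 8 neural progenitor markers was 153 to 439 CPM with RP22 and 2.14 to 5.11 CPM with AA147, and all 6 tested were lower. These markers were lowest in RP22 replicate 1 within their group, as were 9 members by over 1.5 times. Of these 9, EPHA3, EPHA5, SEMA3E and SEMA6B fell with AA147 and EFNA5 rose. EPHA4, PLXNC1 and SEMA5B did not pass the test, and EPHA8 was not tested. The part of neural progenitor cells in the falls of EPHA3, EPHA5 and EPHA7 was not tested.

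All 5 B-type Eph receptors changed, 3 upward and 2 downward. EPHB4, the partner of EFNB2 known from veins, was at 138, 127 and 137 CPM with RP22 and 248, 257 and 235 CPM with AA147 (0.80 ± 0.0701, adjusted p = 5.9e-05). EPHB2 was at 80.1, 73.9 and 75.5 CPM with RP22 and 151, 151 and 146 CPM with AA147 (0.88 ± 0.0651, adjusted p = 2.7e-05). EPHB6, another receptor without kinase activity, rose with TMM scaling (0.58 ± 0.154, adjusted p = 0.013) and not with library totals alone (0.13, adjusted p = 0.43). EPHB3 was lower, at 63.3, 46.2 and 49.0 CPM with RP22 and 26.6, 22.5 and 24.2 CPM with AA147 (-1.19 ± 0.138, adjusted p = 0.00021). EPHB1, a receptor known from axon routing at the optic chiasm, was lower too. It was at 8.87, 9.0 and 7.01 CPM with RP22 and 1.83, 0.827 and 1.39 CPM with AA147 (-2.68 ± 0.305, adjusted p = 0.0002). The groups did not overlap for any of the 5 receptors. Of all genes tested, 62% passed the test and 70.6% did not overlap. EPHB1 reached the filter's minimum in every library of RP22 alone, so mainly a fall could be called for it.

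The makeup of each family does not depend on how libraries are scaled. It was followed as the share of each member in the summed RPKM (read counts scaled to library size and gene length) of its role within a library. Among class 3 semaphorins SEMA3F led at day 1 (47.5 ± 4.28%, SD, n = 3) and SEMA3C with RP22 (35.3 ± 2.99%), and SEMA3C made up 74.3 ± 4.46% with AA147. SEMA6A was the leading membrane semaphorin at day 1 (46.3 ± 2.95%), SEMA4C and SEMA6A with RP22 (25.2 ± 4.82% and 19.5 ± 4.51%), and SEMA7A and SEMA5A with AA147 (33.9 ± 3.43% and 27.1 ± 2.02%). EFNB2 made up 35.5 ± 7.83% of the B-type ephrin RPKM at day 1, 66.8 ± 1.93% with RP22 and 89.6 ± 0.736% with AA147. Among A-type ephrins EFNA1 held 33.7 ± 3.56% with RP22 and 53.2 ± 3.13% with AA147.

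In the A-type Eph receptors each group had another leading member. EPHA1 led at day 1 with 69.9 ± 1.13% of their summed RPKM, EPHA7 with RP22 with 38.7 ± 1.01%, and EPHA2 with AA147 with 63.5 ± 6.37%. EPHA7 held 0.312 ± 0.122% with AA147. The summed RPKM of all A-type receptors was 59.9 to 76.2 with RP22 and 55.3 to 58.4 with AA147. The sums thus lay closer than the levels of EPHA7 and EPHA2. These sums rest on library totals, so which group is higher can turn with the scaling. B-type receptors kept EPHB4 as the leading member, with 77.4 ± 5.54% at day 1, 40.8 ± 2.74% with RP22 and 47.7 ± 1.63% with AA147. EPHB3 held 16.5 ± 1.41% with RP22 and 4.87 ± 0.374% with AA147. Summed neuropilin RPKM was 17.5 to 23.6 at day 1, 70.9 to 101 with RP22 and 18.7 to 26.2 with AA147, while summed class 3 semaphorin RPKM was 13.1 to 17.8, 121 to 134 and 138 to 139. With AA147 the summed class 3 ligands were thus above both other groups, while their neuropilin receptors overlapped the day 1 range. RPKM rests on library totals, and the overlap of the neuropilins turns with the scaling. In TMM-scaled CPM their sum was 65.7 to 90.0 CPM at day 1 and 112 to 184 CPM with AA147, without overlap.

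**Figure D3:**
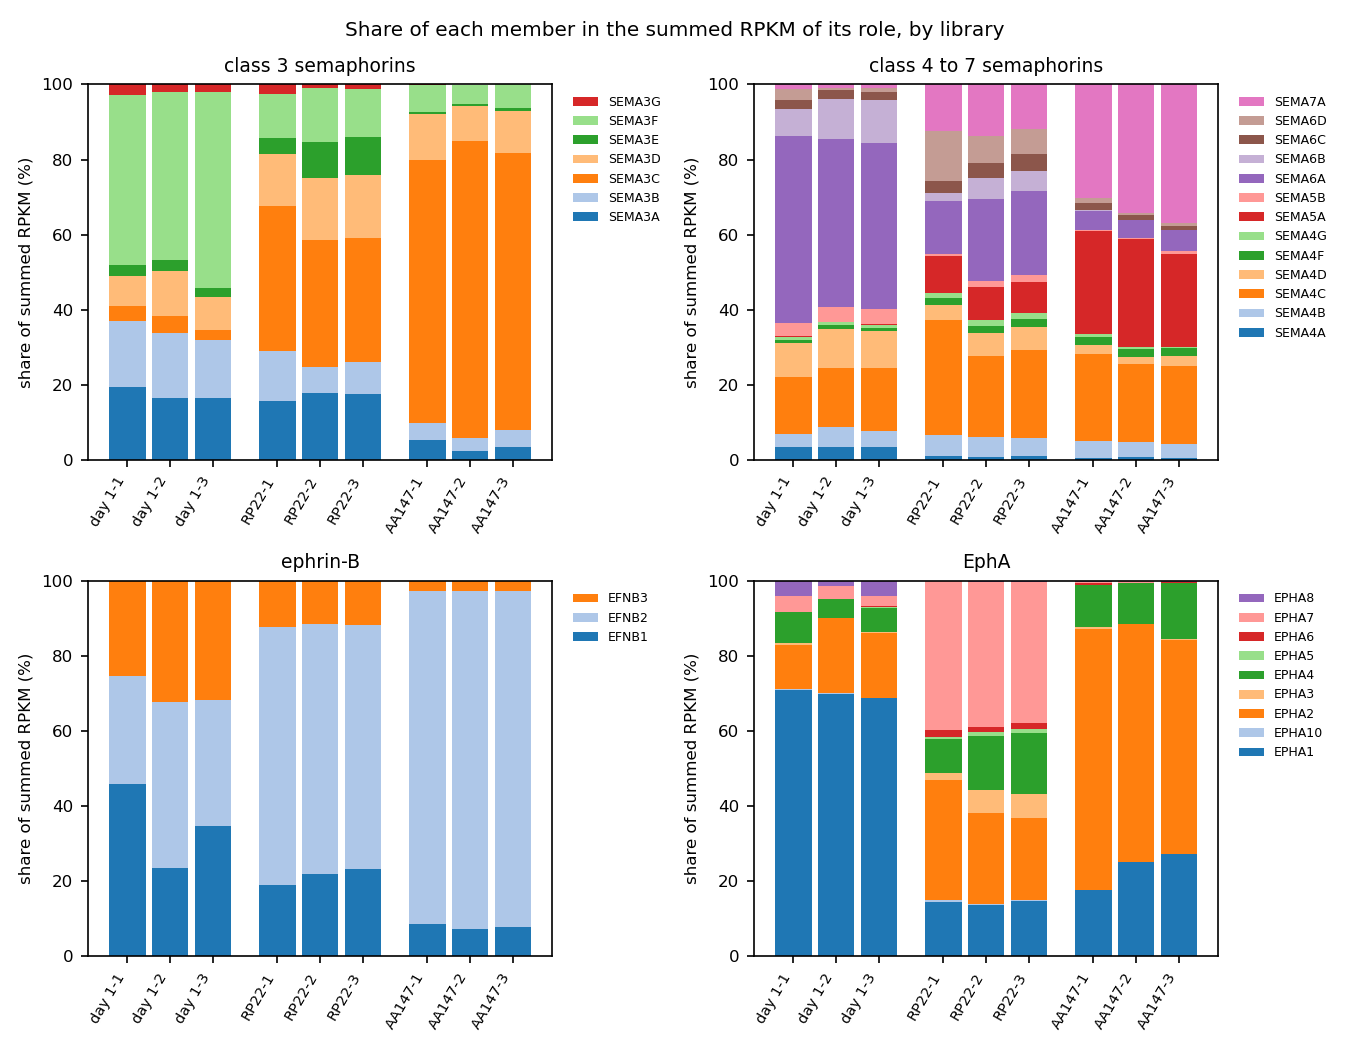
Share of each member in the summed RPKM of its role (percent, stacked to 100 in each bar) for class 3 semaphorins, classes 4 to 7, B-type ephrins and A-type Eph receptors in the 9 libraries. The leading A-type receptor is EPHA1 in the day 1 bars, EPHA7 in the RP22 bars and EPHA2 in the AA147 bars, and SEMA3C fills 70.1 to 79.0% of the class 3 bars with AA147.

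The comparisons of each day 13 group with day 1 ask how the families changed over differentiation, and both use the same 3 day 1 libraries. Most guidance genes were higher at day 13 than in the stem cells. With RP22, 39 of the 52 members tested rose and 8 fell, or 75.0% and 15.4%, against 36.6% and 35.2% of all genes tested (71.9% in either direction). With AA147, 30 of 48 rose and 11 fell, or 62.5% and 22.9%, against 38.7% and 40.4% of all genes (79.1% in either direction). Members that reached the filter's minimum in only 1 of the groups could be called mainly toward that group. The 46 and 41 members with the minimum in all 6 libraries had 34 rises and 7 falls with RP22 (73.9% and 15.2%, against 31.8% and 38.5% of such genes) and 29 and 5 with AA147 (70.7% and 12.2%, against 39.3% and 38.5%). The members' median log2 fold change was 1.58 with RP22 and 1.16 with AA147, and over all genes it was 0.02 and -0.04. Libraries that form separate ranges, as described below, were found for 76.9% and 82.3% of all genes in these comparisons. The 27 members that rose in both comparisons included 6 of the 7 class 3 semaphorins, all 3 B-type ephrins and 7 of the 9 plexins. With library totals alone EFNB3 (0.01, adjusted p = 0.94), PLXNB1 (0.06, adjusted p = 0.55) and SEMA3F (0.25, adjusted p = 0.28) did not pass with AA147, which lowers each of these tallies by 1. The 7 that fell in both were EPHA1, EPHA8, SEMA4A, SEMA4D, SEMA5B, SEMA6A and SEMA6B. The share of all genes called in both comparisons is not given here, and the shared day 1 libraries favour the same direction in both. The tallies of 27 and 7 thus cannot be set against a background.

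SEMA3C and SEMA5A were among the members with the steepest rises over day 1. SEMA3C was at 3.34, 2.72 and 2.19 CPM at day 1, with log2 fold changes of 6.15 ± 0.155 with RP22 and 7.90 ± 0.138 with AA147. SEMA5A was at 7.43, 3.01 and 4.77 CPM at day 1, with 5.08 ± 0.280 with RP22 and 7.09 ± 0.237 with AA147. EFNB2 was at 24.6, 26.5 and 24.8 CPM at day 1 (3.95 ± 0.103 and 5.29 ± 0.0929), SEMA7A at 8.08, 4.28 and 4.28 CPM (3.47 ± 0.230 and 5.30 ± 0.224) and PLXND1 at 20.8, 26.5 and 26.4 CPM (2.33 ± 0.149 and 3.88 ± 0.136). In these 5 genes the day 1, RP22 and AA147 libraries formed 3 separate ranges in rising order. EPHB3 rose from 21 reads over the day 1 libraries to 1773 with RP22 (6.27 ± 0.396) and 558 with AA147 (5.15 ± 0.404). Day 1 replicate 1 held most of its day 1 reads, and without it the values were 7.42 and 6.30. PLXNA2 rose as well (5.60 ± 0.315 with RP22 and 4.88 ± 0.267 with AA147). All values with all libraries in this paragraph had an adjusted p of at most 1.3e-05.

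SEMA6A and SEMA6B fell with both compounds. SEMA6A was at 703, 451 and 507 CPM at day 1, with log2 fold changes of -1.35 ± 0.214 with RP22 (adjusted p = 0.0012) and -2.83 ± 0.183 with AA147 (adjusted p = 2.4e-06). SEMA6B was at 59.5, 61.7 and 73.9 CPM, with -1.25 ± 0.323 (adjusted p = 0.013) and -5.93 ± 0.185 (adjusted p = 5.5e-09). In both genes the 3 groups formed separate ranges in falling order from day 1 over RP22 to AA147. SEMA4D followed the same order, with -0.92 ± 0.151 with RP22 and -1.74 ± 0.127 with AA147 (adjusted p = 0.00078 and 1.1e-06). EPHA1 fell too, with -1.45 ± 0.0916 for RP22 and -0.53 ± 0.138 for AA147 (adjusted p = 5.3e-06 and 0.0058). EPHA8 had 57, 23 and 56 reads at day 1 and at most 5 in any day 13 library (-3.70 ± 0.500 and -3.99 ± 0.558, adjusted p = 0.00025 and 0.00011).

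**Figure D4:**
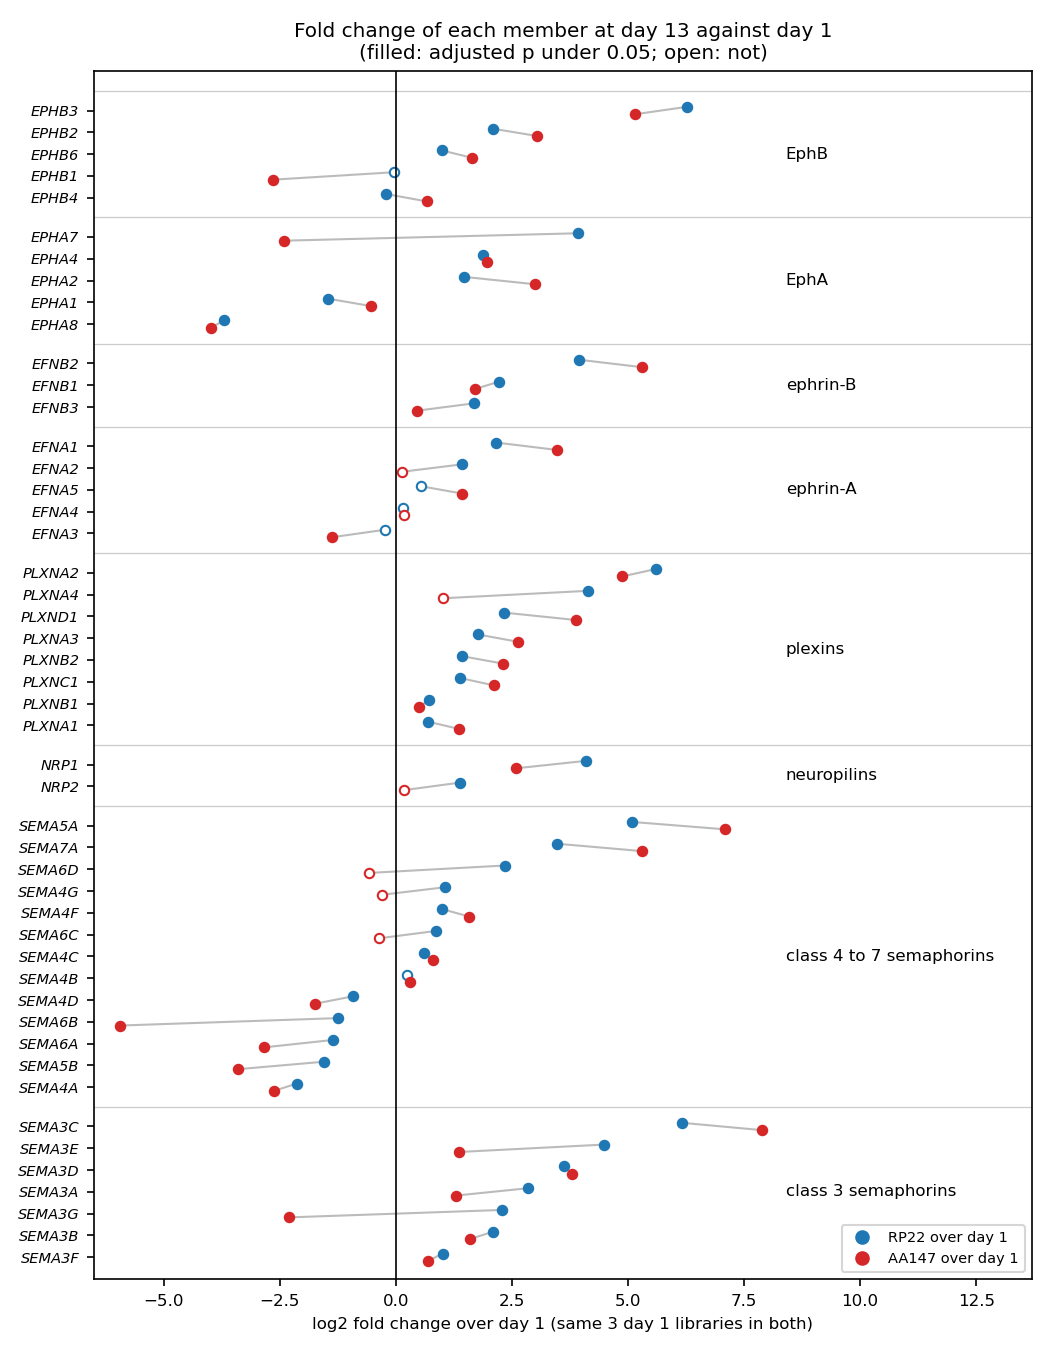
Log2 fold change over day 1 with RP22 (blue) and with AA147 (red) for the 48 members tested in both comparisons, which share their day 1 libraries, with filled points for adjusted p under 0.05. Most points lie right of 0, and EPHA7 and SEMA3G lie at 3.92 and 2.28 with RP22 and at -2.41 and -2.30 with AA147.

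For 3 members the day 13 groups moved past the test in opposite directions from day 1. The share of all genes that did so is not given here. EPHA7 was at 7.62, 6.61 and 5.57 CPM at day 1, rose with RP22 (3.92 ± 0.145, adjusted p = 5e-07) and fell with AA147 (-2.41 ± 0.336, adjusted p = 0.0001). SEMA3G was at 2.14, 1.17 and 1.39 CPM at day 1, rose with RP22 (2.28 ± 0.470, adjusted p = 0.0028) and fell with AA147 (-2.30 ± 0.658, adjusted p = 0.0093), where leaving out AA147 replicate 2 or 3 gave -2.92 or -1.70. EPHB4 was at 149.9, 153 and 161 CPM at day 1, fell slightly with RP22 (-0.21 ± 0.0724, adjusted p = 0.031) and rose with AA147 (0.67 ± 0.0710, adjusted p = 1.5e-05). The fall of EPHB4 with RP22 ended with DESeq2 (adjusted p = 0.064), with library totals alone (0.22), on log2 RPKM (0.23) and without day 1 replicate 2 (0.077) or 3 (0.098) or RP22 replicate 2 (0.12) or 3 (0.067).

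A further 6 members rose with RP22 and did not pass the test with AA147 against day 1, namely EFNA2, NRP2, PLXNA4, SEMA4G, SEMA6C and SEMA6D. Each of them fell in the direct comparison of the compounds, which uses the same day 13 libraries and so is no separate support. With AA147, SEMA4G (-0.73, adjusted p = 0.013) and SEMA6C (-0.80, adjusted p = 0.014) passed as lower than day 1 with library totals alone, and NRP2 on log2 RPKM (-0.42, adjusted p = 0.015). NRP2 was at 80.3, 55.3 and 65.7 CPM at day 1, and its log2 fold change was 1.37 ± 0.144 with RP22 and 0.18 ± 0.174 with AA147 (adjusted p = 7.2e-05 and 0.35). SEMA6D had 26.2, 4.47 and 8.55 CPM at day 1, highest in replicate 1, and log2 fold changes of 2.34 ± 0.659 and -0.57 ± 0.674 (adjusted p = 0.02 and 0.46). Its rise with RP22 was 3.35 without day 1 replicate 1 and did not pass without day 1 replicate 3 (adjusted p = 0.058) or RP22 replicate 1 (0.069). NRP1, by contrast, was higher than day 1 with both compounds (4.09 ± 0.289 and 2.60 ± 0.273, adjusted p = 3e-05 and 6.3e-05). EPHB1 was at 12.2, 6.61 and 6.66 CPM at day 1 and fell with AA147 (-2.64 ± 0.375, adjusted p = 0.00012), while its value with RP22 was -0.04 ± 0.273 (adjusted p = 0.91). EPHA3, EPHA5, EPHA6 and PLXNB3 were tested against day 1 with RP22 alone. They reached the filter's minimum in every library of RP22 and not of day 1, so mainly a rise could be seen, and had 12, 5, 6 and 18 reads over the day 1 libraries and 534, 163, 95 and 146 over the RP22 libraries. Of these, RP22 replicate 1 held the lowest count of EPHA3 and EPHA5 and the highest of PLXNB3.

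Known ligand and receptor pairs can be set side by side in RPKM, a per-length scale. It rests on library totals, so differences between groups can depart from the TMM-scaled values. EFNB2 was at 6.24 ± 0.272 RPKM at day 1, 103 ± 6.97 with RP22 and 181 ± 11.1 with AA147, and its receptor EPHB4 at 38.4 ± 1.40, 35.6 ± 1.5 and 45.3 ± 2.32 RPKM (SD, n = 3). The ligand was thus below its receptor at day 1 and above it in both day 13 groups. EFNA1 was at 3.61 ± 0.939, 17.3 ± 0.514 and 29.7 ± 3.43 RPKM, and EPHA2 at 6.05 ± 1.70, 18 ± 1.32 and 35.9 ± 4.61 RPKM, so both stood in the order day 1, RP22, AA147. SEMA3E and PLXND1 were at 10.1 and 20.5 RPKM with RP22 and at 0.786 and 41.6 RPKM with AA147. SEMA7A was at 24.0 RPKM with RP22 and 59.3 with AA147, while its receptor PLXNC1 was at 1.83 and 2.07 RPKM. For its other receptor chain, ITGB1 went from 1236 ± 255 to 4148 ± 312 CPM (1.67 ± 0.149, adjusted p = 6.5e-05). SEMA4D and PLXNB1 were at 18.2 and 19.6 RPKM at day 1, at 10.3 and 34.4 RPKM with RP22 and at 4.0 and 20.2 RPKM with AA147. The return of PLXNB1 to its day 1 level turns with the scaling. In TMM-scaled CPM it was at 131 CPM at day 1, 216 CPM with RP22 and 185 CPM with AA147. Its log2 fold change over day 1 with AA147 was then 0.50 ± 0.0875 (adjusted p = 0.00053), against 0.06 with library totals alone.

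Partners and effectors of the 2 systems were followed by lists chosen from general knowledge, but with earlier results of these data known. Of 39 semaphorin and plexin partners, 16 rose and 13 fell between AA147 and RP22, with a median log2 fold change of 0.15. Over all genes tested 29.8% rose and 32.2% fell, so the falls were near the background. With library totals alone 11 partners rose and 21 fell, against 1897 and 8527 of all 14293 genes. Against day 1, 22 of 39 rose and 8 fell with RP22, where all genes had 36.6% and 35.2%. With AA147 22 of 36 rose and 11 fell, where all genes had 38.7% and 40.4%. The cytoskeletal oxidase MICAL2 (3.49 ± 0.148, 41.1 to 488 CPM), the small GTPase RRAS (2.28 ± 0.0914, 9.90 to 51.1 CPM) and DPYSL3 (1.88 ± 0.129, 574 to 2245 CPM), a collapsin response mediator, had the largest rises beside ITGB1. The collapsin response mediator DPYSL5 (-6.92 ± 0.570, 86.6 to 0.753 CPM), the placental growth factor PGF (-4.24 ± 0.280, 51 to 2.81 CPM) and the VEGF receptor KDR (-3.47 ± 0.636, 87.4 to 8.24 CPM) fell. The log2 fold change of KDR was -4.19 without AA147 replicate 1. CHL1, an adhesion molecule in SEMA3A signalling, had 593 reads with RP22, of which replicate 1 held 329, and 1 read with AA147, or 402 (95% counting interval 71.8 to 15894) times as many after scaling. The fitted log2 fold change of CHL1 was -8.36, or -7.70 without RP22 replicate 1 and -10.46 without AA147 replicate 3, which held the AA147 read. These genes had an adjusted p of at most 0.0061.

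Of the 36 ephrin and Eph partners, 35 were tested and 17 rose and 10 fell (median 0.28). With TMM scaling the falls were again near the share of all genes (32.2%), and 29.8% of all genes rose. With library totals alone 7 partners rose and 17 fell, against 1897 and 8527 of all 14293 genes. Against day 1, 17 of 35 rose and 10 fell with RP22, where all genes had 36.6% and 35.2%. With AA147 18 of 34 rose and 10 fell, where all genes had 38.7% and 40.4%. The RAC regulator CHN2 (1.73 ± 0.206, 25.8 to 90.9 CPM), the adaptor NEDD9 (1.51 ± 0.147, 56.6 to 170.2 CPM), the exchange factor VAV2 (1.47 ± 0.0937, 106 to 309.5 CPM) and ADAM10 (1.21 ± 0.0850, 357 to 873 CPM), a protease that cuts ephrins, had the largest rises. VAV3 (-3.09 ± 0.564, 18.8 to 2.32 CPM) fell while its paralog VAV2 rose, and CHN1 (-2.60 ± 0.541, 67.0 to 11.6 CPM) fell while CHN2 rose. The log2 fold change was -4.32 for VAV3 without AA147 replicate 1 and -1.95 for CHN1 without RP22 replicate 1. SH2D3C, an adaptor of Eph receptors, had 230 RP22 and 3 AA147 reads, or 51.9 (95% counting interval 17.6 to 254) times as many. PTPRO, a phosphatase of Eph receptors, had 278 and 1, or 188 (95% counting interval 33.5 to 7465) times as many. Without AA147 replicate 3, the fitted log2 fold change moved from -5.64 to -6.47 for SH2D3C and from -7.24 to -9.34 for PTPRO. The largest adjusted p among these was 0.0092.

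Markers of further cell types are given for the whole set of members. The summed level of 6 mesenchyme markers was 379.6 to 528 CPM at day 1, 8192 to 23752 CPM with RP22, highest in replicate 1, and 46879 to 56881 CPM with AA147, where 5 of 6 were higher than with RP22. The sum of 6 smooth muscle markers was 1008 to 1219 CPM with RP22 and 5949 to 6708 CPM with AA147, with 5 of 6 higher. The sum of 6 neural crest markers was 440.2 to 842 CPM with RP22, again highest in replicate 1, and 90.4 to 129 CPM with AA147, with all 6 lower and FOXD3 at 0 reads with AA147. NRP1, PLXNA4, PLXNB3, SEMA3B, SEMA3G and SEMA6D also had their highest RP22 level in replicate 1, by over 1.5 times. The part of these cell types in the members' changes was not tested.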

How the data were processed

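RNA was sequenced from 9 libraries of HUES9 cells, 3 in each of 3 groups. The authors deposited expected counts (reads per gene, unscaled) and RPKM per library. Per the submitters' processing notes, the build is GRCh37.p13. Which aligner, counter and strand setting were used is not given in the sources used here. In the deposited count table the floor value of 0.05 was read as 0 and fractions were rounded, although none of the members' 477 values was a fraction. The 42 symbols on 2 rows were summed.

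Each comparison was fitted on its own 6 libraries in R 4.3.3 with edgeR 4.0.16 (filterByExpr, TMM, robust quasi-likelihood F test, group as the only term), with Benjamini-Hochberg adjustment over all genes tested and 0.05 as the threshold. Biological coefficients of variation were 15.4% (AA147 against RP22), 15.6% (RP22 against day 1) and 12.3% (AA147 against day 1). SEs were taken as the fold change in log2 divided by the square root of F, and for genes with few reads they can fall below the counting error. CPM values use TMM factors over all 9 libraries and are given per library in the order of replicates 1, 2 and 3. Groups with 1 to 3 reads are compared by scaled reads with an exact (Clopper-Pearson) 95% interval for counting error only. Alternatives were DESeq2 1.42.0, limma-voom and limma on log2(RPKM + 0.1) (limma 3.58.1), other scalings, a fit to all 9 libraries, no filter on counts, leaving out each library and a replicate block. The procedure was tested on simulated data.

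Members described with per-library values are those at least 2-fold changed between the compounds past the test, without overlap and with at least 5 CPM in the higher group, the 2 of each role with the highest RPKM, and those past the test in opposite directions from day 1. Others are given by shorter values. From each partner list up to 4 genes per direction are named. The members and lists were chosen with earlier results of these data known. Overlapping genes come from GENCODE v29 models on GRCh38 and promoters from RefSeq on GRCh38.p14, both matched by symbol.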

Additional observations from a re-analysis of the deposited data

How the results depend on the processing

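The counts of members past the test kept within 1.5 times under every alternative run. For AA147 with RP22 they ranged from 11 to 17 upward and from 23 to 32 downward, for RP22 with day 1 from 38 to 40 and from 7 to 8, and for AA147 with day 1 from 26 to 31 and from 11 to 14. The 11 and 32 came with library totals alone and on log2 RPKM, where 8527 and 8505 of all 14293 genes fell. The background thus moved as well, and the members' falls were near it there. Leaving out 1 library at a time gave 16 to 17 and 23 to 26 for AA147 with RP22, 38 to 40 and 7 to 8 for RP22 with day 1, and 29 to 30 and 11 to 12 for AA147 with day 1. Of the single calls, 30 of 41, 42 of 47 and 37 of 41 held in every alternative run. SEMA4B against day 1, higher with AA147 by 0.30 on the log2 scale with TMM, was at -0.14 with library totals alone and -0.14 on log2 RPKM, and its call ended without day 1 replicate 3 (adjusted p = 0.062). With the replicate number as a block, 17 members rose and 28 fell for AA147 with RP22, 39 and 7 for RP22 with day 1, and 30 and 11 for AA147 with day 1, and 1 call ended (EPHB4 for RP22 with day 1). For AA147 with RP22 the block also called PLXNB3, PLXNC1, SEMA3B and SEMA5B (adjusted p = 0.0046, 0.03, 0.019 and 0.0026). Whether same-numbered libraries belong together cannot be told from the number alone. The correlation of their deviations from the group means ranged from -0.0546 to 0.191 over the comparisons. For AA147 with RP22 it was positive for each number (0.191, 0.153 and 0.0633). AA147 replicate 3 correlated better with RP22 replicate 2 (0.109) than with its own number. These weak correlations cannot decide whether the libraries were paired. Other calls that ended were PLXNC1 for RP22 with day 1 without day 1 replicate 1 or 2 or RP22 replicate 2 or 3 and with limma-voom (adjusted p = 0.062 to 0.082), SEMA4C without day 1 replicate 2 or 3 (0.059 and 0.062) and SEMA5B without day 1 replicate 1 (0.054). Depth limits the members with few reads, such as EPHA5, EPHA6, EPHA8, EPHA10 and SEMA3G with AA147.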
